A study of Mastomys natalensis with 3 samples.

Results

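Chief cells are the zymogen-secreting cells at the base of the acid-secreting gastric glands. The products followed here are Pgc, which encodes progastricsin (pepsinogen C), Chia, which encodes acidic mammalian chitinase, Cblif, which encodes the cobalamin-binding intrinsic factor, and Lipf, which encodes the acid-stable preduodenal lipase. Every probe set was taken whose platform annotation gives 1 of these symbols alone, which made 6 probe sets for 4 genes, of 8740 non-control probe sets and 4736 singly named genes. Pgc and Chia had 1 probe set each, and Cblif and Lipf had 2 each.

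The samples were total RNA of Mastomys natalensis, a rodent in which stomach carcinoids are common, hybridised to Affymetrix rat arrays. The first sample came from animals with a gastric carcinoid of enterochromaffin-like (ECL) cells, a tumour that arose spontaneously. The second came from animals given loxtidine for 16 weeks, and the third from animals given loxtidine for 8 weeks. All of them were, per the labels, cells of the gastric mucosa enriched for ECL cells. In the source field, the 8-week sample alone was given as ECL cells, while the others were given as gastric mucosa. No untreated animals were analysed here, and neither the number of animals per sample nor their age was given in the sources used here. Loxtidine blocks the histamine H2 receptor of parietal cells. Each group had 1 array, so the differences below are descriptions of single arrays, with no test and no replicate error.

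Pepsinogens are stored in granules as inactive precursors and are cleaved to active pepsins by acid in the gastric lumen. Chitinase hydrolyses the chitin of insects and fungi and works at acid pH. Intrinsic factor binds vitamin B12 and carries it to its receptor in the ileum, and it comes from chief cells in rodents and from parietal cells in humans. Preduodenal lipase starts fat digestion. It is a chief cell product in humans, whereas in the rat it is made mainly by serous glands of the tongue.

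The 3 arrays differed in brightness and in the condition of their control transcripts. The median deposited intensity of non-control probe sets was 13.9 on the carcinoid array, 13.1 at 16 weeks and 10.2 at 8 weeks. The ratio of the 3′ to the 5′ control probe set of GAPDH was 2.31, 1.43 and 8.95 on those arrays in that order, and that of beta-actin was 11.7, 6.71 and 16.1. Both ratios were lowest at 16 weeks and highest at 8 weeks. Values below are quantile normalized unless called deposited, and folds are given only where both arrays reached a floor of 12.4, the pooled median. Where 1 array alone reached it, the fold is a bound written "at least". The only error available was the spread between pairs of probe sets of 1 gene. It is the root mean square gap between the brightest pair of each gene, scaled to the error of a single probe set. On the log2 scale it was 0.82 between carcinoid and 8 weeks, from 395 genes, and 0.62 between carcinoid and 16 weeks, from 456 genes. Between 16 and 8 weeks it was 0.79, from 410 genes. Of these pairs, 39.5%, 25.4% and 34.1% in the same order were more than 1 apart. The spread holds no variation between animals. It comes from probe sets of any brightness at or above the floor. It is close to the standard deviation of all probe sets measured on both arrays, 0.87, 0.67 and 0.85 in the same order.

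Pgc and Chia gave some of the brightest signals on every array, although the labels describe preparations enriched for ECL cells. The Pgc probe set, X04644_at, ranked 8 from the brightest on the carcinoid array, 6 at 16 weeks and 4 at 8 weeks. The Chia probe set, rc_AI639227_at, ranked 7, 5 and 8 on the same arrays. The brighter Cblif probe set, J03577_at, ranked 88, 60 and 70, within the top 1.01% of non-control probe sets on each array. A rank depends on how well each rat probe set meets Mastomys RNA as well as on the transcript level, and it is given as a description of the signal.

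Of the defining ECL markers, the histamine-forming enzyme histidine decarboxylase (Hdc) did not reach the floor anywhere, with deposited intensities of 3.4 on the carcinoid array, 5.2 at 16 weeks and 3.7 at 8 weeks. The vesicular monoamine transporter Slc18a2, which loads histamine into granules, reached the floor on all 3 arrays with 1 probe set, at 23.2, 42.3 and 21.8, and on none with the other. The gastrin receptor Cckbr read 35.3, 56.5 and 74.3 on its brighter probe set, whereas the other reached the floor at 16 weeks alone, at 33.4. Chga had no singly named probe set. These signals too depend on how well each rat probe set meets Mastomys RNA, and its part in the low values was not tested. In RNA that may come from several cell types, fewer cells of a type and less RNA per cell cannot be told apart either.

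**Figure D1:**
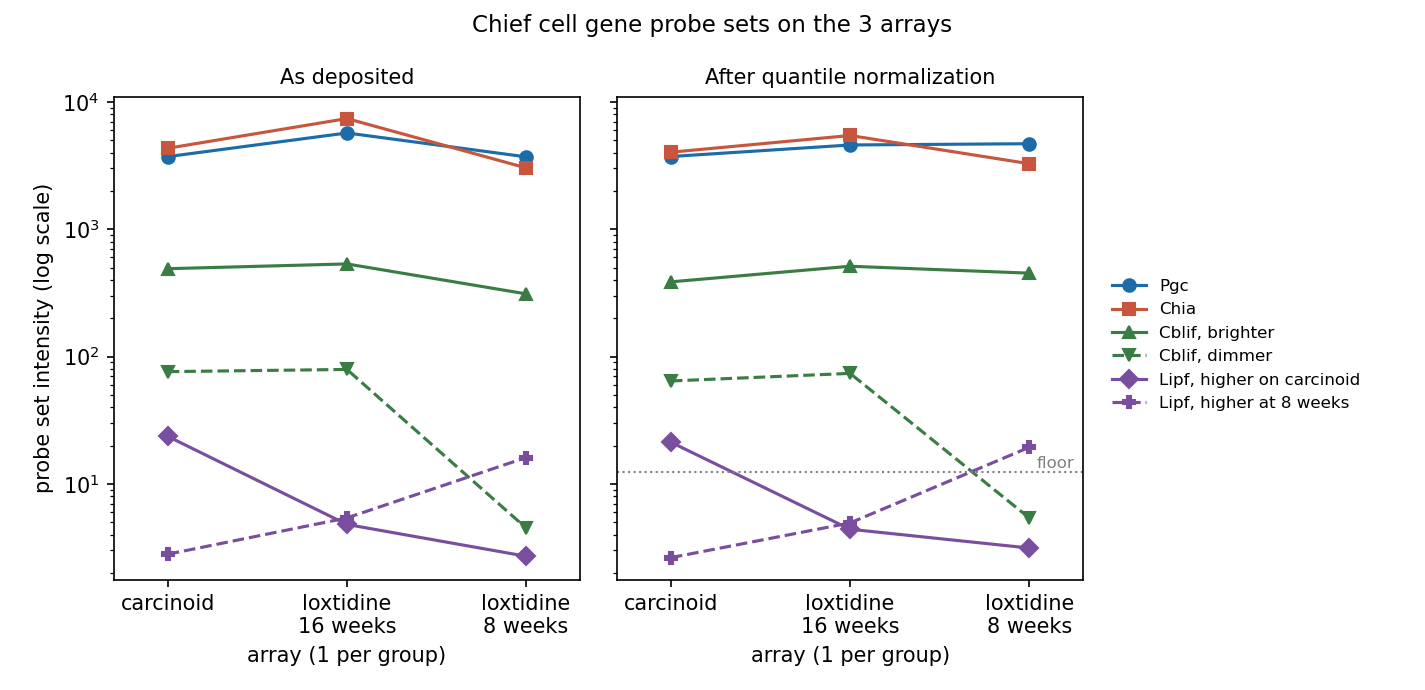
Intensity of each member probe set (log axis) on the carcinoid, 16-week and 8-week arrays, as deposited on the left and quantile normalized on the right, where the dotted line is the floor of 12.4. Each point is 1 array and lines only join points of 1 probe set. Pgc and Chia lie far above the other members on every array, the dimmer Cblif probe set lies below the floor at 8 weeks alone, and the Lipf probe sets cross.

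Pgc differed little between the arrays after normalization, which sets values by rank at ranks as high as those of Pgc. Its deposited intensity was 3718 on the carcinoid array, 5703 at 16 weeks and 3701 at 8 weeks, so the 16-week array stood above the other arrays. After normalization it read 3724, 4589 and 4695 in the same order, and the carcinoid array was then the lowest. The normalized signal was 1.26-fold lower in the carcinoid than at 8 weeks and 1.23-fold lower than at 16 weeks, and it was 1.02-fold lower at 16 than at 8 weeks. These log2 differences of -0.33, -0.30 and -0.03 were all smaller than the spread between probe sets. As deposited, Pgc was level between carcinoid and 8 weeks (log2 difference 0.01) and 1.54-fold higher at 16 than at 8 weeks.

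Chia had its highest value at 16 weeks in both versions of the data. Its deposited intensity was 4324 on the carcinoid array, 7400 at 16 weeks and 3032 at 8 weeks. The normalized values were 4026, 5448 and 3271. The normalized signal was 1.23-fold higher in the carcinoid than at 8 weeks, 1.35-fold lower in the carcinoid than at 16 weeks, and 1.67-fold higher at 16 than at 8 weeks. The last difference was 0.74 on the log2 scale, just under the spread of 0.79, and 82.9% of 2567 probe sets measured on both arrays had a lower one. As deposited it was 2.44-fold (log2 difference 1.29), in values whose overall median was shifted by 0.39 in the same direction.

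Chia and Pgc thus did not move by the same amount against the 8-week array. Their log2 differences lay 0.77 apart for 16 against 8 weeks and 0.63 apart for carcinoid against 8 weeks, with Chia the higher each time, and 0.66 and 0.51 apart in the deposited values. Both normalized gaps were smaller than the spread in their comparison. That spread is the error of a single probe set, whereas a gap between genes holds the error of both. For carcinoid against 16 weeks the genes lay only 0.13 apart, with Chia the lower.

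Cblif was represented by probe sets of very different brightness, which disagreed about the 8-week array. J03577_at read 490 on the carcinoid array, 534 at 16 weeks and 311 at 8 weeks as deposited, and 386, 512 and 452 after normalization. Its normalized signal was 1.17-fold lower in the carcinoid than at 8 weeks, 1.33-fold lower than at 16 weeks, and 1.13-fold higher at 16 than at 8 weeks. As deposited it was 1.58-fold higher in the carcinoid than at 8 weeks, so the direction of that difference rests on the scaling.

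The dimmer Cblif probe set, D45199cds_s_at, read 76.1 on the carcinoid array, 79.2 at 16 weeks and 4.5 at 8 weeks as deposited, and 64.3, 73.7 and 5.4 after normalization. The carcinoid and 16-week values were close together, and the 8-week value was below the floor. Normalized signal was therefore at least 5.18-fold higher in the carcinoid and at least 5.95-fold higher at 16 weeks than at 8 weeks. With the floor at the 25th percentile, 4.2, these became measured folds of 11.9 and 13.7, and with the floor at the 75th percentile, 30.0, bounds of 2.14 and 2.46. The probe sets of Cblif lay at least 2.60 apart on the log2 scale for carcinoid against 8 weeks, at least 2.39 apart for 16 against 8 weeks and 0.21 apart for carcinoid against 16 weeks. The suffix marks a probe set whose probes may match several transcripts, and the annotation ties it to a neighbouring accession, D45200, so its identity is less certain than that of J03577_at.

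A split of this kind, chosen for counting after the Cblif values were seen, was commonest on the 8-week array. Among 1348 further probe sets of genes whose brightest probe set reached the floor everywhere, 26 (1.93%) were below the floor at 8 weeks alone while above 30.0 on both other arrays. The matching counts were 12 for the carcinoid array and 4 for the 16-week array. Atp4a, the catalytic subunit of the parietal cell proton pump, was also among the 26. Its brightest probe set read 903, 1449 and 966 on the carcinoid, 16-week and 8-week arrays, and another read 55.0, 95.4 and 4.2. The 8-week array is that with the high GAPDH 3′ to 5′ ratio, and the part of RNA condition in the Cblif split was not tested. Of probe sets named for coding sequences, as the dimmer Cblif one is, 15.1% were at least 2-fold higher and 15.7% lower at 16 than at 8 weeks. Of those made from expressed sequence tags, 13.9% were higher and 10.7% lower.

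Lipf could not be given a direction. A01157cds_s_at read 23.6 on the carcinoid array, 4.8 at 16 weeks and 2.7 at 8 weeks as deposited, and it reached the floor on the carcinoid array alone. X02309_at read 2.8, 5.4 and 16.1 in the same order and reached the floor at 8 weeks alone. The probe sets therefore ran opposite ways. The normalized signal in the carcinoid was at least 1.71-fold higher than at 8 weeks on A01157cds_s_at and at least 1.56-fold lower on X02309_at. With the floor at 30.0 neither reached it on any array. The values that passed the floor were 21.2 and 19.4 after normalization, on A01157cds_s_at in the carcinoid and on X02309_at at 8 weeks.

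Against the 8-week array, 1 of the 6 member probe sets, the dimmer Cblif one, was at least 2-fold higher in the carcinoid and 0 were at least 2-fold lower. Over 4530 probe sets with 1 symbol that reached the floor on either array, 15.0% were at least 2-fold higher in the carcinoid and 13.5% lower. For 16 against 8 weeks the same Cblif probe set alone was at least 2-fold higher, among 5 with a fold or bound, and 0 were lower, where 14.2% of 4508 probe sets were higher and 12.8% lower. For carcinoid against 16 weeks, 0 of 5 were at least 2-fold apart, against 9.63% higher and 9.51% lower of 4394. A count of 0 or 1 among 5 or 6 probe sets lies close to these background shares.

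In carcinoid against 16 weeks Pgc, Chia and Cblif ran the same way under every scaling, and Lipf did not follow them. Lipf A01157cds_s_at was at least 1.71-fold higher in the carcinoid, and X02309_at reached the floor on neither array. The 4 member probe sets measured on both arrays, of Pgc, Chia and Cblif, were all lower in the carcinoid, with log2 differences between -0.20 and -0.44. They were lower as well in the deposited values, at -0.62 for Pgc, -0.78 for Chia and -0.12 and -0.06 for Cblif, and under each of the other ways of processing tried. None of the quantile-normalized differences reached the spread of 0.62. With median scaling Pgc was at -0.70 and Chia at -0.86, and no spread was computed for that scaling. The beta-actin and GAPDH 3′ to 5′ ratios were also higher in the carcinoid than at 16 weeks, and their part in these differences was not tested. In the comparisons with 8 weeks a common direction depended on the scaling. For 16 against 8 weeks, Pgc, Chia and the brighter Cblif probe set were all higher at 16 weeks as deposited (0.62, 1.29 and 0.78) and with median scaling (0.26, 0.93 and 0.42). For carcinoid against 8 weeks they were at 0.01, 0.51 and 0.66 as deposited and at -0.44, 0.07 and 0.21 with median scaling. For carcinoid against 16 weeks, quantile normalized, 2701 probe sets were measured on both arrays, around a median of 0.01. Of these, 23.7% lay further down than Chia, 30.4% than Pgc, and 25.2% and 36.6% than the brighter and dimmer Cblif probe sets. As deposited there were 2839, around a median of 0.10. The shares were then 9.8% for Chia, 14.2% for Pgc, and 35.6% and 39.6% for Cblif.

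**Figure D2:**
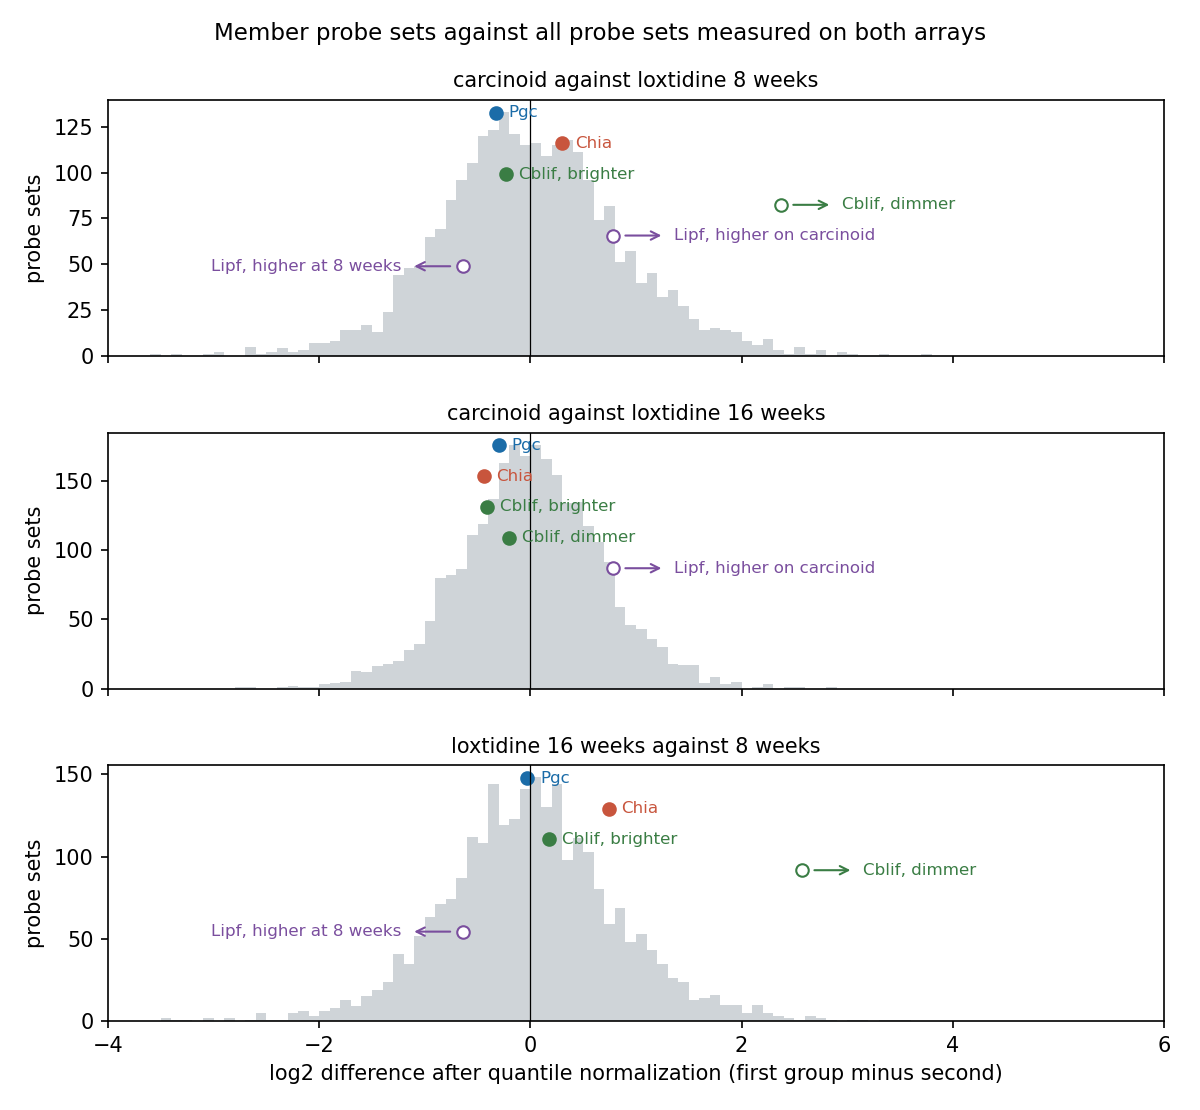
Log2 difference of each member probe set (coloured points, filled where both arrays reached the floor, open with an arrow where the value is a bound) over a histogram of all singly named probe sets measured on both arrays, for carcinoid against 8 weeks, carcinoid against 16 weeks and 16 against 8 weeks. The height of a point carries no value. Pgc, Chia and the brighter Cblif probe set lie within the bulk of each histogram, and the dimmer Cblif bound lies in the right tail of both comparisons with the 8-week array.

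Other genes linked to chief cells were read from a list of 18, of which 9 had a singly named probe set. Of the genes on or above the floor, 1 of 7 was at least 2-fold higher in the carcinoid than at 8 weeks and 2 lower, 0 of 7 were higher and 3 lower in the carcinoid than at 16 weeks, and 3 of 8 were higher and 1 lower at 16 than at 8 weeks. Their median log2 differences were 0.07, -0.17 and 0.21, against -0.02, 0.00 and 0.00 over all probe sets. Over all probe sets, 15.0% were at least 2-fold higher and 13.5% lower in the carcinoid than at 8 weeks. Against 16 weeks the shares were 9.63% and 9.51%, and for 16 against 8 weeks 14.2% and 12.8%. Colipase (Clps), the cofactor of pancreatic lipase, read 344 in the carcinoid, 1124 at 16 weeks and 1059 at 8 weeks. It was 3.27-fold lower in the carcinoid than at 16 weeks and 3.09-fold lower than at 8 weeks (440, 1214 and 610 as deposited). Bhlha15 (Mist1), the transcription factor that sets up the secretory apparatus of zymogenic cells, was below the floor in the carcinoid and read 35.1 at 16 weeks and 17.5 at 8 weeks. It was at least 2.83-fold lower in the carcinoid than at 16 weeks. Ribonuclease Rnase1 reached the floor at 8 weeks alone, at 59.1, and the carbonic anhydrase Car3 missed it at 8 weeks alone, with 31.3 in the carcinoid and 26.0 at 16 weeks.

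Relatives of the members by enzyme class were mostly dim. Of 8 aspartic proteases listed, 2 were singly named. Lysosomal cathepsin D (Ctsd) read 27.8 in the carcinoid, 38.5 at 16 weeks and 20.97 at 8 weeks, and Ctse, an aspartic protease of the gastric mucosa, read 14.3, 31.8 and 26.7. Ctse was 2.22-fold lower in the carcinoid than at 16 weeks. Of 10 lipases, 9 were singly named. In the carcinoid against 16 weeks 2 of 7 were at least 2-fold higher, both as bounds, and 0 lower. Of all probe sets, 9.63% were higher and 9.51% lower. Against 8 weeks 1 of 7 lipases was higher and 1 lower in the carcinoid, where the shares were 15.0% and 13.5%. At 16 against 8 weeks 0 of 6 were higher and 1 lower, where the shares were 14.2% and 12.8%. Pancreatic lipase (Pnlip) read 32.6, 9.57 (below the floor) and 128 on its brighter probe set. Its other probe set was below the floor throughout. Bile salt-stimulated lipase (Cel) read 71.5, 46.3 and 43.7, and Pnliprp2, a pancreatic lipase relative, reached the floor in the carcinoid alone, at 25.2.

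The chitinase and lysozyme list held 3 singly named genes of 7, with 0 at least 2-fold apart in any comparison. Over all probe sets, between 9.51% and 15.0% were so in each direction. The brightest gene of the list, the lysozyme gene Lyz2, was below the floor in the carcinoid and read 18.6 at 16 weeks and 22.1 at 8 weeks. Of 14 genes for cobalamin handling, 6 were singly named. Transcobalamin (Tcn2), which carries cobalamin in blood, was below the floor in the carcinoid and read 38.0 at 16 weeks and 57.8 at 8 weeks. It was at least 4.66-fold lower in the carcinoid than at 8 weeks. Cobalamin-dependent methionine synthase (Mtr) read 20.9 in the carcinoid and 28.0 at 8 weeks, and it was below the floor at 16 weeks.

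Markers of the other cells in the mucosa moved unevenly beside the members, and their part in the members' values was not tested. Parietal cell genes, 13 singly named of 17, had summed normalized intensities of 2036 in the carcinoid, 2432 at 16 weeks and 2815 at 8 weeks, and deposited sums of 2639, 2629 and 1756. Of those reaching the floor, 2 of 10 were at least 2-fold higher and 2 lower in the carcinoid than at 8 weeks, 1 of 9 was higher and 0 lower in the carcinoid than at 16 weeks, and 1 of 9 was higher and 2 lower at 16 than at 8 weeks. Over all probe sets the shares higher and lower were 15.0% and 13.5%, 9.63% and 9.51%, and 14.2% and 12.8%, in that order. As deposited, 4 parietal cell genes were higher and 0 lower in each comparison with the 8-week array. The deposited shares over all probe sets were 26.3% higher and 5.99% lower for the carcinoid, and 22.3% and 6.18% for 16 weeks. All 3 Atp4a probe sets were lower in the carcinoid than at 16 weeks, by 1.60-fold, 1.73-fold and 1.93-fold. Atp4b, the pump's other subunit, read 117, 143 and 240 on its M35535_at probe set and 126, 156 and 99.2 on the other, so its probe sets disagreed about the 8-week array too. The anion exchanger Slc4a2 was 3.38-fold lower in the carcinoid than at 8 weeks by its brightest probe set, whereas another gave a value 1.13-fold higher. For creatine kinase B (Ckb) the corresponding values were 1.46-fold lower and 1.19-fold higher. At 8 weeks the Slc4a2 probe sets read 859 and 255, and the normalized parietal sums used the former. With the latter the 8-week sum would not be the highest.

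Mucous cell genes, 7 of 10, summed to 1733 in the carcinoid, 1228 at 16 weeks and 1382 at 8 weeks, and to 2144, 1305 and 866 as deposited, so their sum was highest in the carcinoid either way. Of 7 genes, 2 were at least 2-fold higher and 1 lower in the carcinoid than on each of the other arrays. Over all probe sets, 15.0% were higher and 13.5% lower than at 8 weeks, and 9.63% and 9.51% than at 16 weeks. As deposited, 4 mucous cell genes were higher and 0 lower than at 8 weeks, and 2 higher and 1 lower than at 16 weeks. The deposited shares over all probe sets were 26.3% and 5.99% against 8 weeks, and 12.3% and 9.54% against 16 weeks. The trefoil peptide Tff1 read 1213 in the carcinoid, 831 at 16 weeks and 1124 at 8 weeks, and Tff2, of mucous neck cells, read 65.6, 19.3 and 44.8. The pit cell mucin Muc5ac read 213, 168 and 15.8 on its brighter probe set and 57.7, 79.2 and 12.4 on the other, so its probe sets disagreed on the order of carcinoid and 16 weeks. Tff3, the intestinal trefoil peptide, read 25.2, 60.0 and 62.7. ECL and neuroendocrine genes, 16 of 18, summed to 232, 345 and 358, and to 260, 370 and 280 as deposited, with 0 of 10 at least 2-fold higher and 4 lower in the carcinoid than at 8 weeks (1 and 1 as deposited), and 1 higher and 1 lower than at 16 weeks in both versions. The shares over all probe sets given for the mucous cell genes hold for these counts too. The ECL and neuroendocrine sum was lowest in the carcinoid in both versions, but it used the brightest probe set of each gene. As deposited, the carcinoid and 8-week sums lay close together. With the other probe sets of Cckbr (3.0 and 2.2) and Scg5 (28.9 and 20.7), the deposited carcinoid sum would not be the lowest. The granule protein chromogranin B (Chgb) read 17.7 in the carcinoid, 35.4 at 16 weeks and 37.6 at 8 weeks, the vesicle protein Syp 26.7, 33.6 and 57.1, and the prohormone convertase chaperone Scg5 10.3, 33.6 and 18.97 on its brighter probe set. The other Scg5 probe set read 25.9, 8.77 and 25.3. The Scg5 values of 10.3 and 8.77 were below the floor. Other genes on the list were higher in the carcinoid than at 8 weeks. The prohormone-trimming carboxypeptidase Cpe read 22.5, 22.8 and 13.1, and Reg1a, a regenerating-family gene, was at least 2.05-fold higher in the carcinoid than at 16 weeks and 1.41-fold higher than at 8 weeks on its brighter probe set.

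Enzymes typical of the pancreatic acinus were listed because some are also digestive zymogens. They numbered 13 singly named of 19, and 11 of these read no more than 128.1 after normalization on any array. The exceptions were Clps and Pla2g1b, which encodes a secreted phospholipase A2 first known from pancreatic juice. Pla2g1b read 4428 in the carcinoid, 9366 at 16 weeks and 3636 at 8 weeks as deposited, and ranked 6, 2 and 5 from the brightest. It was 1.80-fold lower in the carcinoid than at 16 weeks and 1.80-fold higher at 16 than at 8 weeks after normalization. The corresponding values of Chia were 1.35-fold lower and 1.67-fold higher. Trypsinogen (Prss1), carboxypeptidase (Cpa1) and chymotrypsinogen (Ctrb1) did not exceed 30.2 on any array, and amylase (Amy2a3) read 50.9, 40.4 and 16.1.

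**Figure D3:**
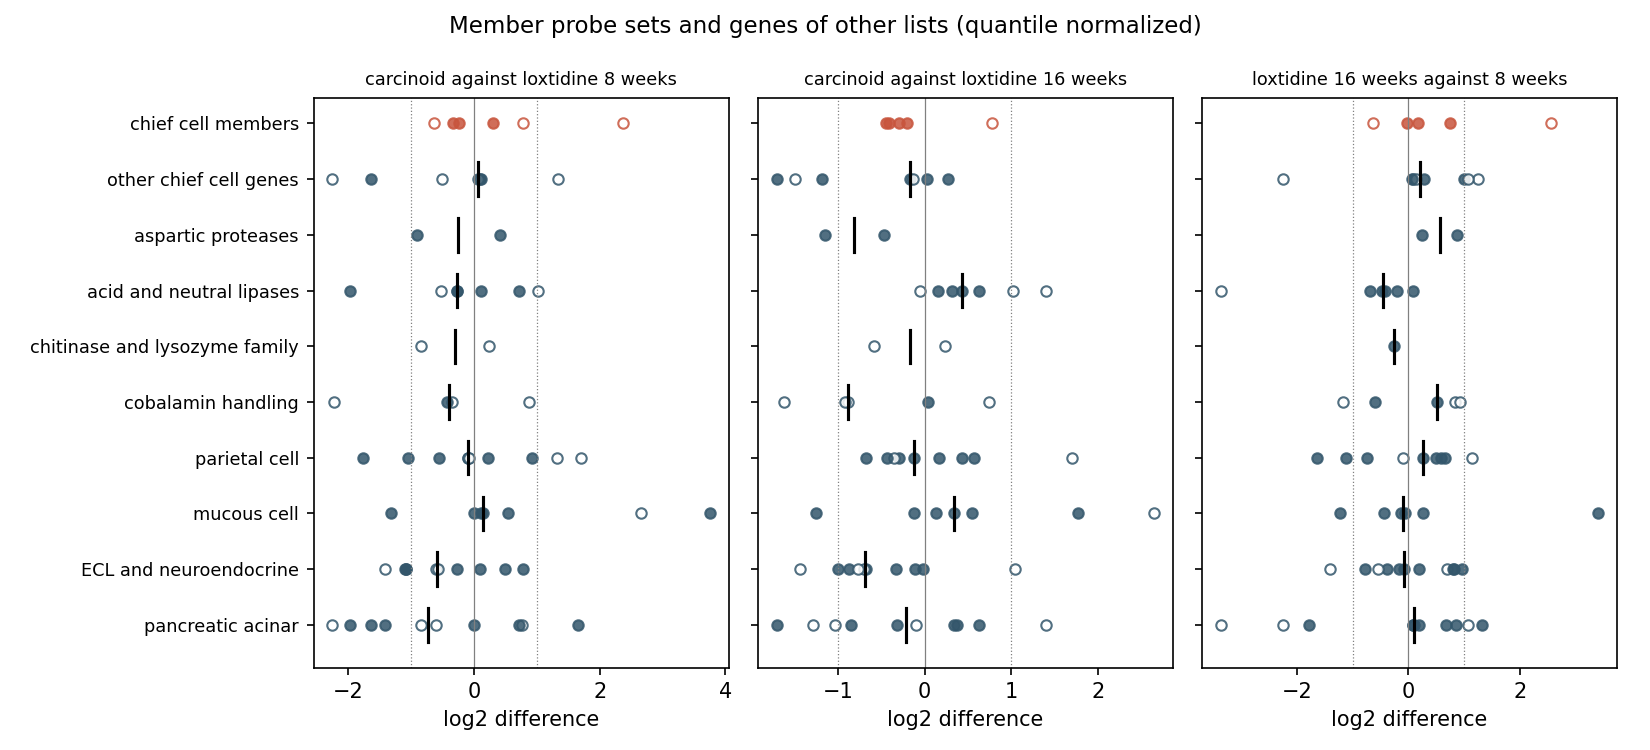
Log2 differences of the member probe sets (top row) and of genes on the other lists in each comparison, filled where both arrays reached the floor and open where the value is a bound. Black ticks mark the median of each other list, dotted lines 2-fold. Each panel has its own horizontal scale. The filled member points all lie left of 0 for carcinoid against 16 weeks, where the open Lipf point lies right of 0. For carcinoid against 8 weeks the filled member points lie on both sides.

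The genes whose pattern over the 3 arrays came nearest to each bright member were found among 2161 singly named probe sets at or above the floor on every array, by the distance between mean-centred log2 values. For Pgc they were Espn, Cga and Pcmtd1, at distances of 0.010, 0.011 and 0.013. For Chia they were Pdgfa, Exoc6 and Vcp, at 0.030, 0.034 and 0.044. For J03577_at of Cblif they were Col3a1, Hadhb and Begain, at 0.023, 0.034 and 0.042. With only 3 arrays such likeness is common: 44, 22 and 37 probe sets lay within 0.1 of Pgc, Chia and Cblif.

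The 100 brightest probe sets other than the members gave a scale for signals in this range. Their deposited values had a median log2 difference of 1.14 for carcinoid against 8 weeks, 0.32 for carcinoid against 16 weeks and 0.73 for 16 against 8 weeks. Pgc, at 0.01, -0.62 and 0.62, lay below each of these medians. Chia, at 0.51 and -0.78, lay below the medians of both comparisons of the carcinoid and, at 1.29, above that of 16 against 8 weeks. After normalization the medians were 0.23, 0.11 and 0.12, with Pgc below each of them. Chia, at 0.30, then lay above the median for carcinoid against 8 weeks.

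**Figure D4:**
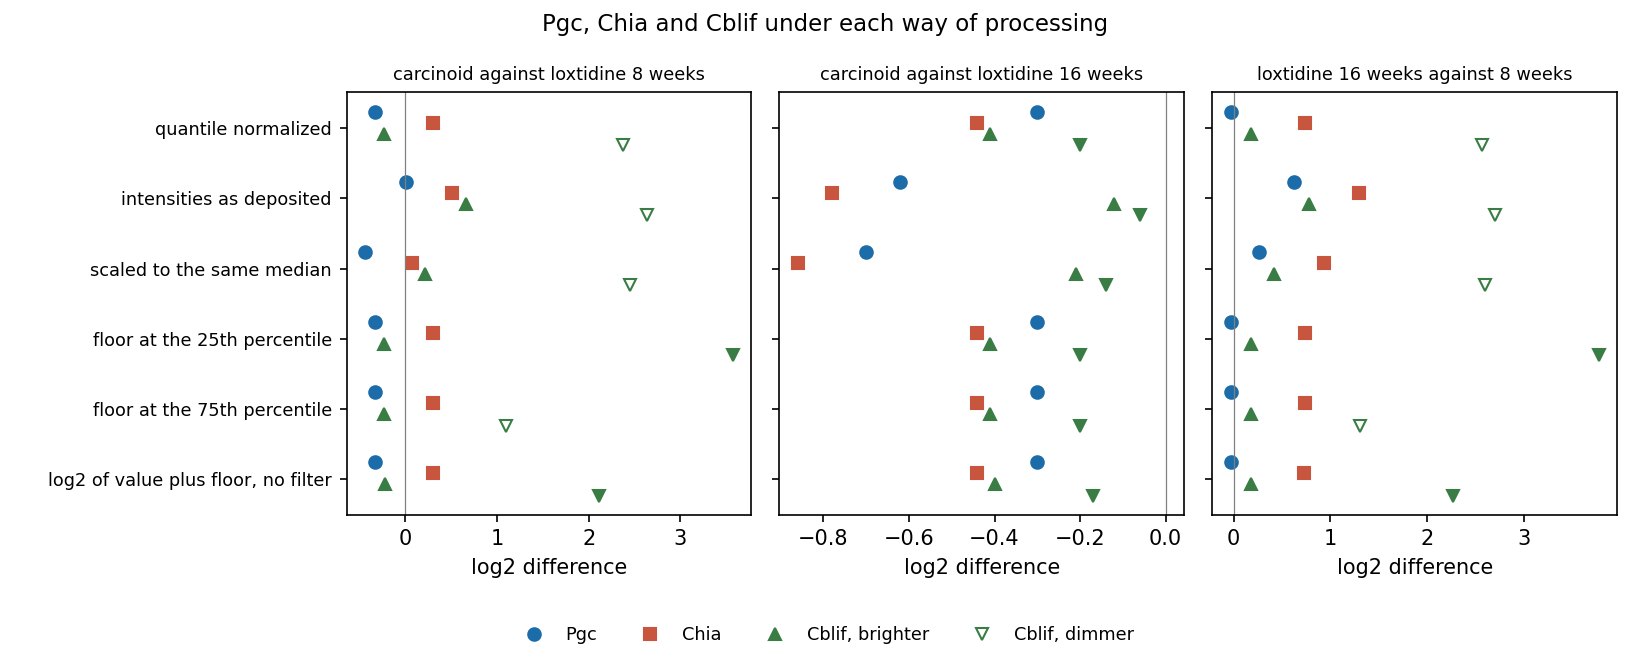
Log2 difference of the Pgc, Chia and Cblif probe sets under each way of processing, one row per setting, filled where both arrays reached the floor and open where the value is a bound. Each panel has its own horizontal scale. All points lie left of 0 for carcinoid against 16 weeks, whereas Pgc changes sides with the scaling in both comparisons with the 8-week array. The brighter Cblif probe set does so for carcinoid against 8 weeks alone.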

How the data were processed

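RNA of 3 samples was measured on 1 Affymetrix rat array each, and groups came from the sample descriptions. The values are intensity on a linear scale, 1 per probe set and array, as deposited by the authors. How they were computed, background-corrected and scaled is not given in the sources used here. The number of arrays limits the precision. All 8799 probe sets, of which 59 were controls, were quantile normalized, as in an earlier account of these data, because overall brightness differed; this hides a shift shared by most transcripts and, at the top ranks, sets values by rank. Symbols came from the platform annotation: of 8740 non-control probe sets, 7006 had 1 symbol, 308 several and 1426 none. Values below the floor of 12.4, the pooled median of normalized non-control values, were raised to it. A listed gene took its brightest probe set. Named were all members, the 3 nearest patterns per bright member, and per list the brightest gene and those at least 2-fold apart, up to 4; Prss1, Cpa1, Ctrb1, Cpe and Reg1a were added after their values were seen. Lists overlap, as in Clps. Members and lists were chosen with earlier results of these data known. Alternatives were the intensities as deposited, median scaling, floors at the 25th and 75th percentiles, and log2 of the value plus the floor. Steps were tested on simulated data. Python 3.11.15, numpy 2.4.6 and pandas 2.3.3 were used.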

Additional observations from a re-analysis of the deposited data

How the results depend on the processing

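Pgc changed direction in both comparisons with the 8-week array. The brighter Cblif probe set did so for carcinoid against 8 weeks alone. For carcinoid against 8 weeks, the log2 difference of Pgc was 0.01 as deposited and that of Cblif 0.66 as deposited and 0.21 with median scaling. For 16 against 8 weeks, Pgc was 0.62 as deposited and 0.26 with median scaling, and Chia passed 2-fold only as deposited, at 1.29. The deposited values were shifted as a whole by medians of 0.47 between carcinoid and 8 weeks, 0.10 between carcinoid and 16 weeks and 0.39 between 16 and 8 weeks, which the other scalings remove or reduce. Lipf bounds gave way to larger differences with the lower floor and with log2 of the value plus the floor. The latter gives no bounds, and with the lower floor the values 2.27 and -1.97 below were measured. A01157cds_s_at was 2.34 and 1.11 for carcinoid against 8 weeks, and against 16 weeks it was 2.27 and 1.0, while X02309_at was -2.21 and -1.08 in the first of these and, with the lower floor, -1.97 for 16 against 8 weeks. With the floor at 30.0 Lipf gave no value. The other differences of the members kept their direction and their side of 2-fold under those of the 5 alternatives that gave a value.

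Counts over all named probe sets depended on the floor, since fewer probe sets pass a higher one. For carcinoid against 8 weeks, 680 higher and 612 lower became 1358 and 1286 at the 25th percentile, 186 and 154 at the 75th, and 1181 and 269 as deposited. For carcinoid against 16 weeks, 423 and 418 became 1088 and 1061 at the 25th percentile and 60 and 59 at the 75th. For 16 against 8 weeks, 639 and 576 became 1336 and 1243, 157 and 144, and 984 and 273. No paired analysis was possible because each group had 1 array.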
